A study of Homo sapiens with 9 samples.

Results

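Solute carriers, the membrane proteins that move nutrients, ions, vitamins and drugs across membranes without spending ATP themselves, were followed at the RNA level through 9 libraries of cultured human cells. Genes were taken as members where the symbol begins with SLC and a number or SLCO and a number and where at least 3 of the 9 libraries reached 1 FPKM (mapped fragments per unit of transcript length, relative to all those of the library). SLC7A11, SLC7A5 and SLC3A2 were left out by name. Of 375 such rows among the 18064 rows of the table, 142 lay under the filter and 230 genes of 49 families were kept. The level itself therefore chose the members, and 210 of them reached 1 FPKM in all 9 libraries, whatever the group. The remaining 20 lay below 1 FPKM in at least 1 library and are described separately, with no test. By symbol, 5 of the 230 encode no transporter (SLC4A1AP, SLC7A6OS, SLC2A4RG, SLC35E2A and SLC22A20P).

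By their titles, 3 libraries had the siRNA si1-BCLIN25, 3 had si2-BCLIN25 and 3 had the control siRNA si-NC, all in MDA-MB-231/PTX, triple-negative breast cancer cells selected for resistance to paclitaxel. Their source and treatment fields instead name PC9/GR, a gefitinib-resistant lung adenocarcinoma line, and hairpins against HUMT, so neither the line nor the targeted RNA is settled, and groups are given as titled. The cells were grown in RPMI medium with fetal bovine serum, and paclitaxel or gefitinib at the time of harvest is not given in the sources used here. BCLIN25 was not analysed here, so the knockdown was not checked. Control columns carry a prefix that siRNA columns lack, so handling and group cannot be told apart. Whether replicates came from separate cultures is not said in the labels, and p-values then measure only the spread between these libraries, which may be technical.

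All 5 epithelial markers listed (CDH1, EPCAM, ESRP1, KRT8 and KRT18) were above 1 FPKM in all 9 libraries, and their sum ran from 795 to 841 FPKM in si1-BCLIN25 and from 819 to 831 in si2-BCLIN25, against 975 to 999 in si-NC. KRT8, KRT18 and EPCAM were lower and CDH1 and ESRP1 higher in every siRNA library than in any si-NC library. ZEB1, a defining mesenchymal factor of MDA-MB-231, was at or below 0.14 FPKM. The mesenchymal markers VIM and CDH2 were present, at 80.5 to 81.3 and 65.6 to 69.6 FPKM in si-NC and at 13.5 to 22.6 and 21.6 to 24.2 FPKM in the siRNA libraries. Of the lung markers, NKX2-1 was at or below 0.78 FPKM and NAPSA at or below 0.34 FPKM, while SFTPB ran from 1.33 to 1.96 FPKM in the siRNA libraries and from 0.75 to 1.22 in si-NC. Summed over 3 mesenchymal markers, FPKM ran from 37.1 to 38.4 in si1-BCLIN25 and from 44 to 44.9 in si2-BCLIN25, against 147 to 150.5 in si-NC. Summed over 5 fibroblast markers, it ran from 14.1 to 14.8 in si1-BCLIN25 and from 12.4 to 13.2 in si2-BCLIN25, against 3.57 to 4.65 in si-NC, with COL1A2, COL3A1 and DCN below 1 FPKM in every library and LUM and COL1A1 carrying the sum. Of 3 blood markers 2 had a row, summing to 41.98 to 43.1 FPKM in si1-BCLIN25 and 37.8 to 38.1 in si2-BCLIN25, against 54.5 to 59.1 in si-NC, nearly all from LAPTM5. The part of these shifts in the transporter results was not tested. Libraries summed to between 394081 and 419025 FPKM, and between 12091 and 12139 genes reached 1 FPKM in siRNA libraries, against 11812 to 11856 in si-NC libraries.

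Solute carriers are grouped into numbered families by sequence, and a family usually shares a kind of substrate. Some are exchangers or uniporters, and others are driven by the sodium gradient that the sodium pump maintains or by the proton gradient across the membrane. Tumour cells are known to use glutamine, glucose, lactate, folate and iron carriers, several of which are also routes by which drugs enter cells, and the SLC25 family supplies the inner membrane of mitochondria.

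FPKM is scaled to transcript length, so levels can be compared between genes. The 10 most abundant members held 32.5% of the members' summed FPKM, and 109 of 230 averaged at least 10 FPKM over the 9 libraries. SLC25A5, the ADP/ATP carrier of the inner mitochondrial membrane, had the highest mean, 371 FPKM, and SLCO2A1, a prostaglandin transporter, the lowest, 0.754 FPKM. Next in order stood SLC25A3 (the mitochondrial phosphate carrier), SLC25A6 (another ADP/ATP carrier), SLC1A5 (the neutral amino acid exchanger ASCT2), SLC38A2 (the neutral amino acid transporter SNAT2), SLC16A3 (the lactate exporter MCT4), SLC25A39 (a mitochondrial glutathione carrier), SLC39A1 (the zinc importer ZIP1), SLC20A1 (the phosphate importer PiT1) and SLC38A1 (SNAT1). The summed FPKM of all members was 4317 ± 23.3 in si1-BCLIN25 and 4308 ± 17.5 in si2-BCLIN25, against 4422 ± 40.97 in si-NC (SD, n = 3 each, as after every ± that follows). Members thus made up 1.02% to 1.12% of the summed FPKM of a library.

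Each siRNA was set against si-NC to ask which transporter RNAs differ once BCLIN25, by the titles, is targeted. Values were taken as log2(FPKM + 1), a scale that understates changes of low genes, and a gene was called higher or lower where limma's adjusted p, over all 12317 genes tested, was below 0.05. Over the 210 members above the filter in every library, 61 rose in both siRNA groups (29%) and 54 fell in both (25.7%), while 66 passed the test in neither. Of all 11411 genes with 1 FPKM in every library, 32.4% rose and 21.3% fell in both groups, a background against which the members' shares were not tested. Under quantile normalization 26.3% and 26.5% of these genes did, and under median centring 27.3% and 26.4%. Counts of each class and family below stand beside these shares, with no test of any difference. In si1-BCLIN25 alone 67 of the 210 rose and 63 fell, beside 37.3% and 25.2% of the genes at large. In si2-BCLIN25 alone 65 rose and 64 fell, beside 37.3% and 25%. Both siRNA groups were set against the same si-NC libraries, so their agreement is not independent. In bulk RNA, fewer cells of a type and less RNA per cell cannot be told apart.

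In all, 61.9% of the 210 were called with si1-BCLIN25, beside 62.5% of genes at 1 FPKM in every library, and 61.4% with si2-BCLIN25, beside 62.4%. None of the 210 was called in opposite directions by the 2 siRNAs, beside 0.00876% of those genes. The split moved with the scaling, for members and for other genes alike. Quantile normalization left 54 upward and 83 downward calls with si1-BCLIN25 (25.7% and 39.5%, beside 30.5% and 31.2% of genes) and 55 upward and 85 downward with si2-BCLIN25 (26.2% and 40.5%, beside 30.6% and 30.5%). Median centring left 56 upward and 80 downward with si1-BCLIN25 (26.7% and 38.1%, beside 31.2% and 30.7%) and 58 upward and 82 downward with si2-BCLIN25 (27.6% and 39%, beside 31.2% and 31%). The median log2 fold change of the 210 was -0.01 in both comparisons, against 0.05 over genes at 1 FPKM in every library. The libraries of si1-BCLIN25 and si-NC did not overlap for 137 of the 210 (65.2%, against 64.2% of genes), and those of si2-BCLIN25 and si-NC did not for 145 (69%, against 66.7%).

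Changes of 2-fold or more on the log2(FPKM + 1) scale were few among the 210, and some low members past 2-fold in plain FPKM are not counted by it. In si1-BCLIN25 3 members rose and 2 fell by that much, beside 2.16% and 1.6% of the genes at large. In si2-BCLIN25 4 rose and 2 fell, beside 2.12% and 1.48%. The rises were SLC6A9, SLC39A11 and SLC1A3 and, in si2-BCLIN25, SLC25A27, and the falls were SLCO4A1 and SLC37A2.

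**Figure D1:**
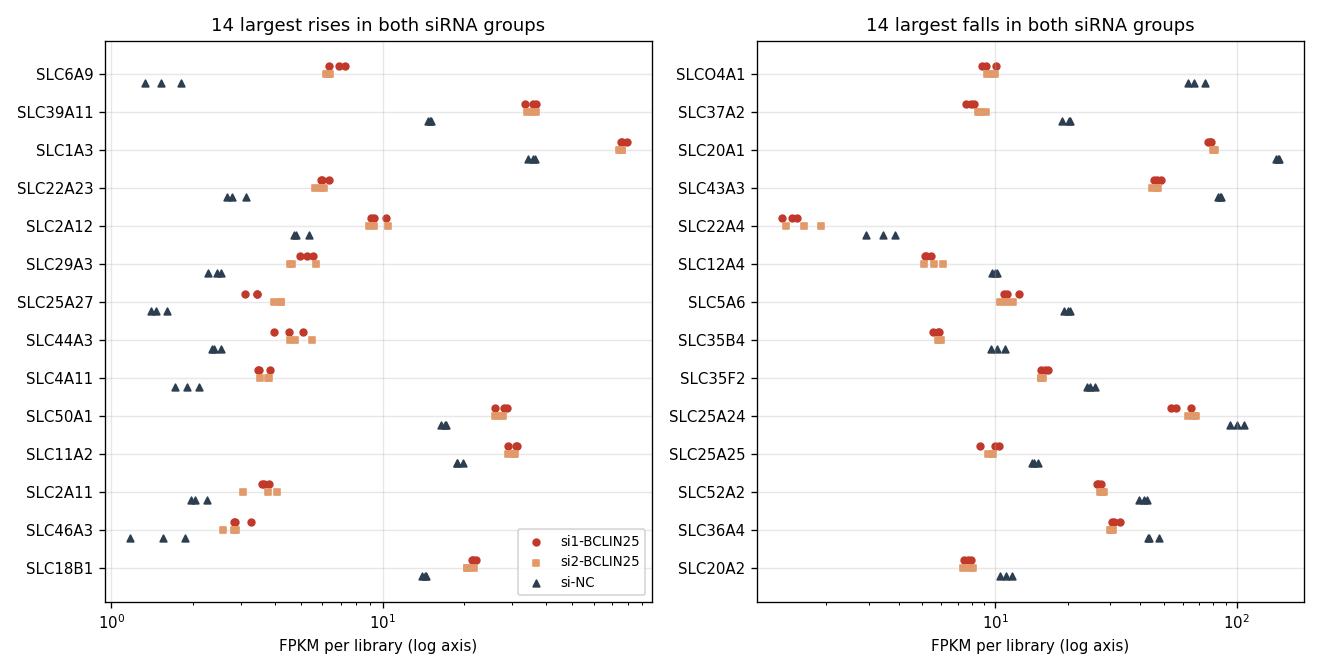
FPKM in each of the 9 libraries (log axis) for the 14 largest rises and the 14 largest falls shared by both siRNA groups, with 3 libraries per group; the rule that chose them required no overlap with si-NC. The siRNA groups lie on top of each other for most genes, and SLCO4A1 lies farthest from si-NC, at 8.85 to 10.1 FPKM in the siRNA libraries against 62.8 to 74.2 FPKM.

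The plot of the largest rises and falls holds genes of every substrate class but carboxylates, fatty acids and the other families. Since the rule for these genes required no overlap with si-NC, the lack of overlap described for them below was set by the choice. To show what lies before the start of such genes, 250 bases are given for the 2 largest rises and the 2 largest falls that have exactly 1 start in RefSeq's promoter table (GRCh38.p14). All are written 5′ to 3′ on the gene's own strand and end at the base before the start. Capitals mark matches, on either strand, to 4 motifs searched: the AP-1 site TGANTCA, the E-box CACGTG, the ATF4 element TGATGNAA and the antioxidant element TGACNNNGC. Promoter positions are those of RefSeq, and the build behind the deposited table is not given in the sources used here.
SLC6A9, rise, chr1:44031463-44031712, minus strand: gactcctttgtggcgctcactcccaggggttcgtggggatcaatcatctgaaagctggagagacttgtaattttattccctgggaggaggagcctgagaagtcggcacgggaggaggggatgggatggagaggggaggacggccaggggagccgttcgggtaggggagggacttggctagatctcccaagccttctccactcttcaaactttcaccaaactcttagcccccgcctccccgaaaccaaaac
SLC39A11, rise, chr17:73092689-73092938, minus strand: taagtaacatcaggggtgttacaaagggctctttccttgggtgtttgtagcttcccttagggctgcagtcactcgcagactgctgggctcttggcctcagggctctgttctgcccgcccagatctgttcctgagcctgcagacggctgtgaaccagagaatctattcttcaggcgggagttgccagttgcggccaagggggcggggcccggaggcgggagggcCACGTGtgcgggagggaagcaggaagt
SLC20A1, fall, chr2:112645689-112645938, plus strand: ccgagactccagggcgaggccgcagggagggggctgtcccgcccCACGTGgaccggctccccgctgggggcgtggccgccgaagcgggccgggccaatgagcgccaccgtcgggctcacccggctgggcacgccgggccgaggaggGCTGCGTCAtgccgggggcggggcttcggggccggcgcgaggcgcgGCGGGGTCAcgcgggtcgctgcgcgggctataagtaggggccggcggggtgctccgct
SLC22A4, fall, chr5:132294144-132294393, plus strand: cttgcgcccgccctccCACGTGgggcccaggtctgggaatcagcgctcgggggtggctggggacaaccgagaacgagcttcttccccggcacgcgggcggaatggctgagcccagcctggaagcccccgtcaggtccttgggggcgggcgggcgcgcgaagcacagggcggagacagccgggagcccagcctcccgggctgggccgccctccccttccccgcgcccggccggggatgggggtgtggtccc
An E-box stood in 3 of these 4 stretches, in a rise and in both falls, and SLC20A1 also held 2 antioxidant elements, while none of the 4 motifs stood in the 250 bases of SLC6A9. Of 230 members 189 had an entry and 130 had exactly 1 start. The E-box was found in 13.1% of those 130, in 9.09% of the 33 that were above the filter throughout and called higher in both groups and in 7.41% of the 27 called lower in both, against 6.34% of 22114 single-start promoters in the table. The antioxidant element stood in 14.6% of the 130, in 21.2% of the 33 and in 14.8% of the 27, against 11.1% of all. Matches to the AP-1 site were in 3.85% of the 130 members, against 6.86% of all, and matches to the ATF4 element in 1.54%, against 3.35%. The 22114 promoters were not limited to genes expressed here, as the members are, and GC content was not matched. These shares therefore compare unlike sets, and their differences were not tested. GC content was 57.6% for SLC6A9, 60.4% for SLC39A11, 80% for SLC20A1 and 76% for SLC22A4, against a median of 57.2% over all single-start promoters. A match is a stretch of letters, not a shown binding site.

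Amino acid and peptide carriers moved in both directions. Of 32 such members above the filter in every library, 14 rose in both siRNA groups and 6 fell in both (43.8% and 18.8%, beside the 32.4% and 21.3% of genes given above, with no test of the difference), with medians of 0.12 and 0.12 on the log2 scale, and under quantile normalization 14 rose and 10 fell (26.3% and 26.5% of genes did) with medians of 0.00 and 0.04. Their summed FPKM was 866 ± 6.48 in si1-BCLIN25 and 861 ± 3.02 in si2-BCLIN25, against 759.7 ± 11.7 in si-NC (SD, n = 3 each). The abundant rises SLC1A5, SLC38A2 and SLC1A3, given below, weigh heavily in this sum, which was not computed without them. SLC6A9, the glycine transporter GlyT1, had 6.89, 7.26 and 6.34 FPKM in si1-BCLIN25 and 6.38, 6.2 and 6.33 FPKM in si2-BCLIN25, against 1.33, 1.8 and 1.53 FPKM in si-NC. Set against si-NC, the log2 difference was 1.62 with si1-BCLIN25 and 1.52 with si2-BCLIN25 (SE 0.072), and limma gave adjusted p = 1.35e-09 and 2.66e-09. No siRNA library came near the si-NC range, and this was the largest rise by the rule among the members that were above the filter throughout. The 50 tested genes around SLC6A9 on chromosome 1 also had medians above 0, 0.29 in si1-BCLIN25 and 0.22 in si2-BCLIN25.

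Glutamate and glutamine carriers were among the abundant rises. SLC1A3, the glutamate and aspartate transporter EAAT1, was at 79.5, 75.7 and 76.2 FPKM in the si1-BCLIN25 libraries and 76.5, 76.2 and 74.6 FPKM in the si2-BCLIN25 libraries, against 35.9, 34.3 and 36.3 FPKM in the si-NC libraries. SLC1A3 thus rose, the log2 fold changes being 1.10 and 1.07 with an SE of 0.036 and adjusted p of 7.48e-11 and 1.1e-10 in limma. The si-NC libraries stood apart below all 6 siRNA libraries. SLC1A5, which exchanges glutamine for other neutral amino acids, stood at 131, 142 and 132 FPKM with si1-BCLIN25 and 136, 134 and 133 FPKM with si2-BCLIN25, against 92.5, 92.9 and 96.5 FPKM with si-NC. In log2 terms SLC1A5 changed by 0.52 with si1-BCLIN25 and by 0.51 with si2-BCLIN25 (SE 0.038), and the adjusted p in limma was 1.56e-07 and 1.85e-07. Its groups did not overlap either. Of 4 members of the SLC1 family, 2 rose in both groups and none fell in both (50% and 0%, beside 32.4% and 21.3% of genes). Under quantile normalization 1 fell. These counts are small and were not tested.

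The SLC38 family holds sodium-coupled transporters of neutral amino acids. Of 8 members, 5 rose in both groups and 1 fell (62.5% and 12.5%, beside 32.4% and 21.3% of genes). Under quantile normalization and under median centring 2 fell. These counts are small and were not tested. SLC38A2 had 130.2, 118 and 128 FPKM in si1-BCLIN25 and 127, 129 and 131 FPKM in si2-BCLIN25, against 90.5, 93.6 and 98.1 FPKM in si-NC. SLC38A5, a carrier of glutamine, serine and glycine, was at 56.01, 61.6 and 60.9 FPKM in the si1-BCLIN25 libraries and 58.03, 59.5 and 56.7 FPKM in the si2-BCLIN25 libraries, against 40.6, 44.4 and 37.8 FPKM in the si-NC libraries. Both stood higher in every siRNA library than in any si-NC library, by 0.41 and 0.45 for SLC38A2 and by 0.53 and 0.50 for SLC38A5 on the log2 scale. SLC38A1, a close relative of SLC38A2, stood at 102, 93.7 and 94.6 FPKM with si1-BCLIN25 and 95.3, 95.4 and 94.1 FPKM with si2-BCLIN25, against 103, 102 and 109 FPKM with si-NC. It was the member of the family called lower, with log2 fold changes of -0.11 (adjusted p = 0.0255) and -0.14 (adjusted p = 0.0094) in limma, and the first of these calls was lost without si-NC replicate 3 (adjusted p = 0.1), si1-BCLIN25 replicate 2 (0.0937) or si1-BCLIN25 replicate 3 (0.086), without the variance trend (0.0506) and with only the 2 groups fitted (0.0572). SLC7A1, an importer of arginine and other cationic amino acids, averaged 71.2 ± 1.2 FPKM in si1-BCLIN25 and 68.2 ± 0.98 in si2-BCLIN25, against 58.5 ± 0.92 in si-NC. It rose in both groups.

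The largest falls in this class included a carrier of another substrate. SLC43A3, which groups with amino acid carriers by family number but is known to carry purine nucleobases, had 48.6, 46.95 and 45.7 FPKM in si1-BCLIN25 and 47.4, 44.8 and 46.95 FPKM in si2-BCLIN25, against 86.2, 85.8 and 83.6 FPKM in si-NC. On the log2 scale SLC43A3 changed by -0.84 and -0.86 (SE 0.037), with adjusted p = 1.17e-09 and 1.03e-09 in limma. Its groups lay far apart, and SLC43A1, an amino acid carrier of the same family, averaged 5.79 ± 0.396 FPKM in si1-BCLIN25 and 6.78 ± 0.85 in si2-BCLIN25, against 5.18 ± 0.23 in si-NC, with a call in si2-BCLIN25 and none in si1-BCLIN25. SLC36A4, an amino acid transporter with high affinity for proline and tryptophan, was at 33.02, 30.5 and 31.04 FPKM in the si1-BCLIN25 libraries and 30.1, 30.2 and 30.8 FPKM in the si2-BCLIN25 libraries, against 43.01, 43.3 and 47.5 FPKM in the si-NC libraries. Its log2 fold change was -0.49 with si1-BCLIN25 and -0.54 with si2-BCLIN25 (SE 0.046), at limma adjusted p = 1.46e-06 and 5.8e-07. It was lower in all 6 siRNA libraries than in any si-NC library.

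**Figure D2:**
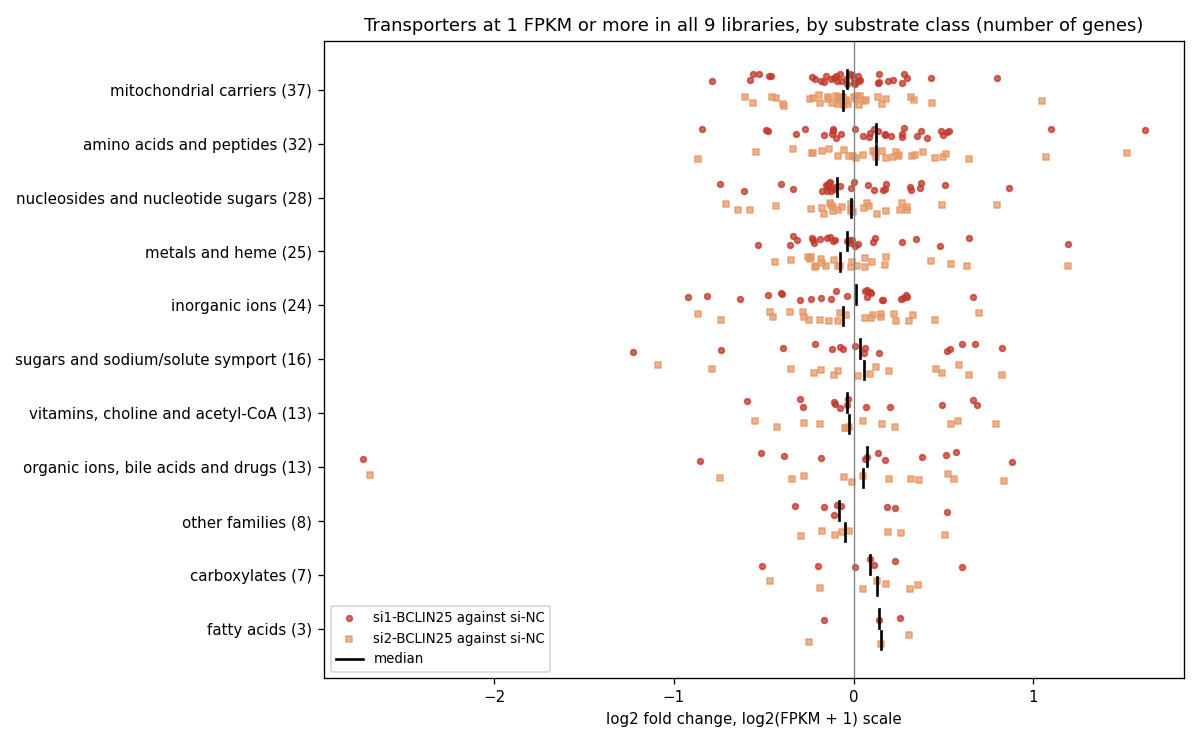
Log2 fold change of each of the 206 transporters above 1 FPKM in all libraries, by substrate class, for si1-BCLIN25 (circles) and si2-BCLIN25 (squares) against si-NC; black bars are class medians. Amino acid and peptide carriers lie mostly right of 0 (medians 0.12 and 0.12, against 0.05 and 0.05 for genes at 1 FPKM in every library). Under quantile normalization, not drawn, the class medians are 0.00 and 0.04. The point far to the left among organic ion carriers is SLCO4A1.

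Among sugar carriers and related sodium symporters, 6 of 16 rose in both groups and 4 fell (37.5% and 25%, beside 32.4% and 21.3% of genes). Under quantile normalization 6 of these carriers rose and 5 fell, and under median centring 5 rose and 6 fell. Their summed FPKM was nearly level, at 216 ± 1.41 in si1-BCLIN25 and 214 ± 2.22 in si2-BCLIN25, against 214 ± 2.88 in si-NC (SD, n = 3 each). SLC2A1, the widespread glucose importer GLUT1, stood at 63.8, 64.6 and 62.03 FPKM with si1-BCLIN25 and 64.01, 62.7 and 61.3 FPKM with si2-BCLIN25, against 57.8, 58.3 and 56.4 FPKM with si-NC. It was the most abundant glucose carrier, and it rose by 0.14 (adjusted p = 0.00326) and 0.12 (adjusted p = 0.00774) in limma, the second call being lost under median centring (adjusted p = 0.0888). Of 7 SLC2 members, 3 rose in both groups and none fell in both (42.9% and 0%, beside the same shares of genes). Under quantile normalization 3 rose and 1 fell, and under median centring 2 rose and 1 fell. These counts are small and were not tested.

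Among sugar carriers less abundant than SLC2A1, 3 of the larger rises were found. SLC2A12, the glucose transporter GLUT12, had 9.09, 9.29 and 10.3 FPKM in si1-BCLIN25 and 9.28, 10.5 and 8.94 FPKM in si2-BCLIN25, against 5.37, 4.7 and 4.78 FPKM in si-NC. SLC2A11, the fructose and glucose transporter GLUT11, was at 3.6, 3.8 and 3.66 FPKM in the si1-BCLIN25 libraries and 3.79, 4.08 and 3.05 FPKM in the si2-BCLIN25 libraries, against 2.25, 1.97 and 2.03 FPKM in the si-NC libraries. SLC50A1, the sugar carrier SWEET1, stood at 28.01, 25.9 and 28.7 FPKM with si1-BCLIN25 and 25.9, 26.9 and 27.6 FPKM with si2-BCLIN25, against 16.4, 16.9 and 17.2 FPKM with si-NC. All 3 were higher in every siRNA library than in any si-NC library, with log2 fold changes of 0.83 and 0.83 for SLC2A12, 0.60 and 0.58 for SLC2A11 and 0.68 and 0.64 for SLC50A1, and adjusted p of at most 4.86e-05 in limma.

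The largest falls in this class were SLC37A2 and SLC5A6. SLC37A2, a phosphate-linked sugar phosphate exchanger of the endoplasmic reticulum, had 8.19, 7.94 and 7.62 FPKM in si1-BCLIN25 and 9.18, 8.69 and 8.51 FPKM in si2-BCLIN25, against 18.9, 20.4 and 20.3 FPKM in si-NC. Set against si-NC, the log2 difference was -1.22 with si1-BCLIN25 and -1.09 with si2-BCLIN25 (SE 0.049), and limma gave adjusted p = 4.62e-10 and 1.56e-09. Its groups did not overlap. SLC37A1, a close relative, averaged 12.2 ± 0.396 FPKM in si1-BCLIN25 and 11.7 ± 0.39 in si2-BCLIN25, against 8.24 ± 0.58 in si-NC, and rose, while SLC37A4, the glucose-6-phosphate carrier of glycogen breakdown, averaged 16.6 ± 0.55 FPKM in si1-BCLIN25 and 16.5 ± 0.805 in si2-BCLIN25, against 17.5 ± 0.27 in si-NC, and passed the test in neither comparison, though it was called lower in both under median centring (adjusted p = 0.0293 and 0.0212). SLC5A6, which belongs to the family of sodium/glucose carriers but imports biotin and pantothenate, was at 11.2, 12.6 and 10.9 FPKM in the si1-BCLIN25 libraries and 11.9, 10.5 and 11.1 FPKM in the si2-BCLIN25 libraries, against 20, 19.4 and 20.4 FPKM in the si-NC libraries. SLC5A6 thus fell, the log2 fold changes being -0.74 and -0.79 with an SE of 0.058 and adjusted p of 2.9e-07 and 1.61e-07 in limma. It lies on chromosome 2, where its 50 neighbours also had medians below 0, at -0.24 and -0.25.

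The SLC16 family carries lactate and other monocarboxylates. Of 7 members 2 rose in both groups and 2 fell (28.6% each, beside 32.4% and 21.3% of genes), while under quantile normalization none rose and 2 fell. SLC16A3, the lactate exporter MCT4, stood at 103, 112 and 109 FPKM with si1-BCLIN25 and 111, 105 and 111 FPKM with si2-BCLIN25, against 124, 129 and 119 FPKM with si-NC. SLC16A1, the lactate and pyruvate carrier MCT1, had 95.2, 88.7 and 98.6 FPKM in si1-BCLIN25 and 95.5, 95.9 and 99.2 FPKM in si2-BCLIN25, against 87.04, 86.5 and 91.5 FPKM in si-NC. SLC16A3 fell, with log2 fold changes of -0.20 (adjusted p = 0.00148) and -0.19 (adjusted p = 0.00218) in limma, and SLC16A1 differed by 0.09 (adjusted p = 0.0852) and 0.13 (adjusted p = 0.0178), a call lost under median centring (adjusted p = 0.133) and without si-NC replicate 2 (0.0546) or si2-BCLIN25 replicate 3 (0.0709). Without si1-BCLIN25 replicate 2 the first comparison passed (adjusted p = 0.0165). Of 3 fatty acid transport proteins of the SLC27 family above the filter throughout, SLC27A2, which activates very long chain fatty acids, averaged 13.7 ± 0.703 FPKM in si1-BCLIN25 and 14.3 ± 0.33 in si2-BCLIN25, against 11.3 ± 0.57 in si-NC, and rose. SLC27A4, the most abundant of them, averaged 19.3 ± 0.14 FPKM in si1-BCLIN25 and 18.1 ± 1.1 in si2-BCLIN25, against 21.7 ± 1.1 in si-NC, and fell, the call in si1-BCLIN25 being lost without si-NC replicate 2 (adjusted p = 0.0576). SLC27A3 averaged 6.33 ± 0.025 FPKM in si1-BCLIN25 and 6.39 ± 0.59 in si2-BCLIN25, against 5.66 ± 0.47 in si-NC, and passed the test in neither comparison, but in both without si-NC replicate 2 (adjusted p = 0.0267 and 0.0215).

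Carriers of inorganic ions summed to 315 ± 6.92 FPKM in si1-BCLIN25 and 329 ± 0.46 FPKM in si2-BCLIN25, against 396 ± 4.15 FPKM in si-NC (SD, n = 3 each). Of 24 such members, 6 rose in both groups and 8 fell (25% and 33.3%, beside 32.4% and 21.3% of genes), against 2 and 11 under quantile normalization and 4 and 10 under median centring. Their medians of 0.01 and -0.06 became -0.14 and -0.20 under quantile normalization. Without SLC20A1 the class summed to 237 ± 7.7 FPKM in si1-BCLIN25 and 248.6 ± 1.1 in si2-BCLIN25, against 248.6 ± 6 in si-NC. SLC20A1, the sodium-phosphate importer PiT1, was at 76.2, 77.9 and 78.4 FPKM in the si1-BCLIN25 libraries and 79.6, 80.7 and 81.7 FPKM in the si2-BCLIN25 libraries, against 149.8, 145 and 148 FPKM in the si-NC libraries. In log2 terms SLC20A1 changed by -0.92 with si1-BCLIN25 and by -0.86 with si2-BCLIN25 (SE 0.032), and the adjusted p in limma was 1.1e-10 and 2.25e-10. It was the most abundant member of the class in every group, and its 50 neighbours on chromosome 2 had medians of -0.41 and -0.37. SLC20A2, the related phosphate importer PiT2, stood at 7.98, 7.75 and 7.41 FPKM with si1-BCLIN25 and 7.4, 7.87 and 8.12 FPKM with si2-BCLIN25, against 11.2, 11.7 and 10.5 FPKM with si-NC. On the log2 scale SLC20A2 changed by -0.48 and -0.46 (SE 0.054), with adjusted p = 7.7e-06 and 1.01e-05 in limma. Its neighbours on chromosome 8 had medians of 0.03 and 0.07, and its groups did not overlap.

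Of 6 cation-chloride cotransporters of the SLC12 family none rose in both groups and 3 fell (0% and 50%, beside 32.4% and 21.3% of genes), 4 under quantile normalization or median centring. Of 5 members of the SLC4 family 1 rose in both groups and 2 fell (20% and 40%), 3 under either other scaling. These are small counts, and they were not tested. SLC12A4, the potassium-chloride cotransporter KCC1, had 5.12, 5.41 and 5.16 FPKM in si1-BCLIN25 and 6.08, 5.09 and 5.59 FPKM in si2-BCLIN25, against 9.7, 10.2 and 9.97 FPKM in si-NC. Its log2 fold change was -0.82 with si1-BCLIN25 and -0.74 with si2-BCLIN25 (SE 0.059), at limma adjusted p = 1.35e-07 and 3.52e-07. No library of either siRNA group reached the si-NC range of SLC12A4. SLC12A2, the sodium-potassium-chloride cotransporter NKCC1, averaged 11.4 ± 0.35 FPKM in si1-BCLIN25 and 12.5 ± 0.38 in si2-BCLIN25, against 15.3 ± 0.77 in si-NC, and also fell. SLC4A7, a sodium-bicarbonate cotransporter, averaged 17.6 ± 0.65 FPKM in si1-BCLIN25 and 20.1 ± 0.71 in si2-BCLIN25, against 27.9 ± 1.8 in si-NC, and fell. Bicarbonate enters or leaves cells through both of these SLC4 proteins: SLC4A2, the most abundant anion exchanger, averaged 47.3 ± 1.7 FPKM in si1-BCLIN25 and 48.1 ± 0.97 in si2-BCLIN25, against 44.9 ± 2.4 in si-NC, and passed the test in neither comparison, but in si2-BCLIN25 without si-NC replicate 3 (adjusted p = 0.0447). SLC4A11, which carries protons with ammonia, was at 3.85, 3.49 and 3.47 FPKM in the si1-BCLIN25 libraries and 3.53, 3.78 and 3.82 FPKM in the si2-BCLIN25 libraries, against 1.72, 1.9 and 2.1 FPKM in the si-NC libraries. Set against si-NC, the log2 difference was 0.66 with si1-BCLIN25 and 0.70 with si2-BCLIN25 (SE 0.068), and limma gave adjusted p = 3.12e-06 and 2.05e-06. It rose although its 50 neighbours on chromosome 20 had medians of -0.27 and -0.28. In the SLC9 family, SLC9D1 (TMCO3) averaged 43.5 ± 1.1 FPKM in si1-BCLIN25 and 48.6 ± 1.4 in si2-BCLIN25, against 35.2 ± 0.62 in si-NC, and rose.

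**Figure D3:**
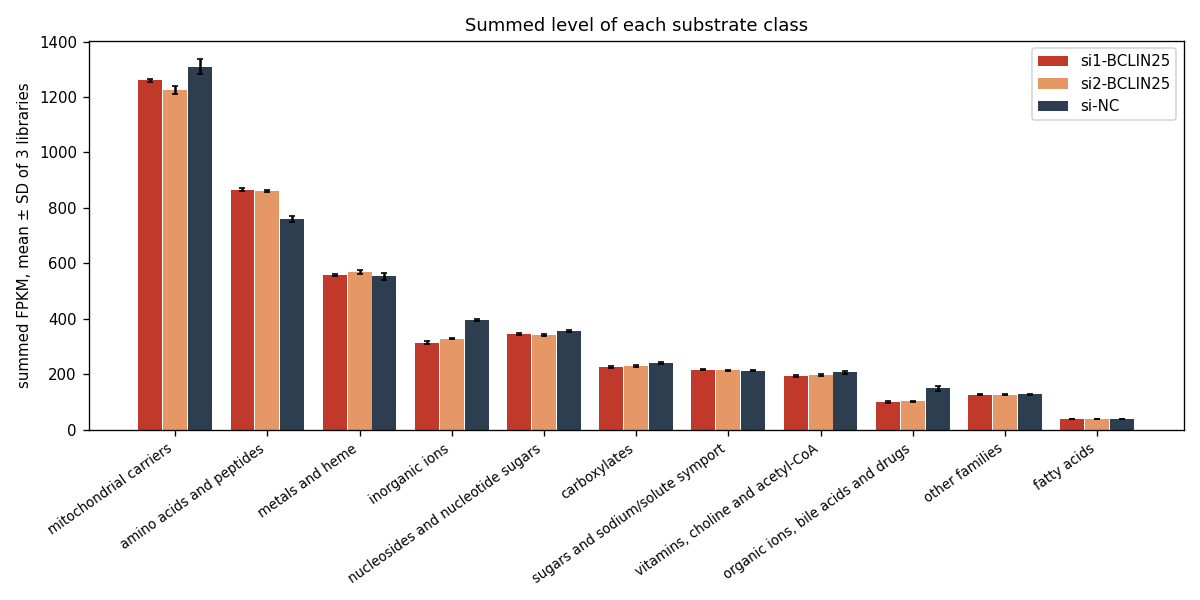
Summed FPKM of each substrate class over members above 1 FPKM in all libraries, as mean ± SD of 3 libraries per group. The siRNA groups lie above si-NC for amino acids and peptides (866 and 861 against 759.7 FPKM). SLC1A5 (135 and 134 against 94 FPKM), SLC38A2 (125 and 129 against 94.1) and SLC1A3 (77.2 and 75.7 against 35.5) weigh heavily in that sum. It was not computed without them. The siRNA groups lie below si-NC for inorganic ions (315 and 329 against 396 FPKM). Without SLC20A1 the inorganic ion sums are 237 and 248.6 against 248.6 FPKM. For organic ions, bile acids and drugs they lie below it too (100.5 and 102 against 149 FPKM). Without SLCO4A1 the organic ion sums are 91.1 and 92.4 against 81.4 FPKM.

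Metal and heme carriers moved in both directions. Of 25 members 6 rose in both groups and 9 fell (24% and 36%, beside 32.4% and 21.3% of genes), against 5 and 9 under quantile normalization and 5 and 11 under median centring. Their sum was 557 ± 4.09 FPKM in si1-BCLIN25 and 569 ± 6.46 in si2-BCLIN25, against 553 ± 11.2 in si-NC (SD, n = 3 each). SLC39A11, the zinc carrier ZIP11, stood at 33.5, 36.6 and 35.7 FPKM with si1-BCLIN25 and 36.7, 34 and 35.5 FPKM with si2-BCLIN25, against 15.1, 14.6 and 14.9 FPKM with si-NC. SLC39A11 thus rose, the log2 fold changes being 1.19 and 1.19 with an SE of 0.044 and adjusted p of 2e-10 and 2.17e-10 in limma. The 3 si-NC libraries lay between 14.6 and 15.1 FPKM, far under every siRNA library, while its 50 neighbours on chromosome 17 had medians of 0.04 and -0.01. SLC11A2, the iron importer DMT1, had 31.2, 28.9 and 30.9 FPKM in si1-BCLIN25 and 29, 30.8 and 30.5 FPKM in si2-BCLIN25, against 18.7, 18.8 and 19.7 FPKM in si-NC. In log2 terms SLC11A2 changed by 0.64 with si1-BCLIN25 and by 0.63 with si2-BCLIN25 (SE 0.043), and the adjusted p in limma was 6.06e-08 and 7.62e-08. SLC48A1, which moves heme out of lysosomes, averaged 5.92 ± 0.65 FPKM in si1-BCLIN25 and 6.2 ± 0.12 in si2-BCLIN25, against 3.95 ± 0.22 in si-NC, and rose as well.

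The zinc importers SLC39A1 and SLC39A6 were the most abundant of this class. SLC39A1 was at 102, 106 and 96.2 FPKM in the si1-BCLIN25 libraries and 108, 114 and 104 FPKM in the si2-BCLIN25 libraries, against 99.1, 99.9 and 103 FPKM in the si-NC libraries. It passed the test in neither comparison (adjusted p = 0.882 and 0.0606 in limma), and the si1-BCLIN25 libraries overlapped with si-NC, while those of si2-BCLIN25 all lay above si-NC. The second comparison passed without si1-BCLIN25 replicate 2 (adjusted p = 0.0486), si1-BCLIN25 replicate 3 (0.0475) or si2-BCLIN25 replicate 3 (0.034). SLC39A6, the zinc importer ZIP6, averaged 41.6 ± 1.6 FPKM in si1-BCLIN25 and 45.8 ± 1.1 in si2-BCLIN25, against 45.2 ± 2.5 in si-NC, with a call in si1-BCLIN25 (adjusted p = 0.0421 in limma) that was lost without any single si2-BCLIN25 library, without replicates 2 or 3 of si1-BCLIN25, or without replicates 1 or 3 of si-NC (adjusted p between 0.0526 and 0.178), and also under quantile normalization (0.0728), with no filter (0.0578), without the variance trend (0.069), with only the 2 groups fitted (0.0727) and with a replicate block (0.0628). SLC39A8, a carrier of zinc and manganese, averaged 40.1 ± 2.2 FPKM in si1-BCLIN25 and 37.6 ± 0.53 in si2-BCLIN25, against 33.1 ± 0.95 in si-NC, and rose, and SLC39A4, the zinc importer of intestinal uptake, averaged 28.1 ± 2.7 FPKM in si1-BCLIN25 and 30.1 ± 2.1 in si2-BCLIN25, against 41.03 ± 0.92 in si-NC, and fell. Of 11 SLC39 members 3 rose in both groups and 4 fell (27.3% and 36.4%, beside 32.4% and 21.3% of genes), against 2 and 4 under median centring. Of 6 SLC30 members, which move zinc out of the cytosol, none rose in both and 3 fell (0% and 50%), 4 under median centring. SLC31A1, the copper importer that also takes up platinum drugs, averaged 21.3 ± 0.34 FPKM in si1-BCLIN25 and 22.1 ± 0.34 in si2-BCLIN25, against 23.4 ± 0.97 in si-NC, with a call in si1-BCLIN25 (adjusted p = 0.0137) and none in si2-BCLIN25 (adjusted p = 0.12).

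Mitochondrial carriers of the SLC25 family had the largest summed FPKM of any class. The 37 members summed to 1259.5 ± 5.16 FPKM in si1-BCLIN25 and 1226 ± 14.7 in si2-BCLIN25, against 1309.6 ± 26.8 in si-NC (SD, n = 3 each). Of these, 6 rose in both groups and 9 fell (16.2% and 24.3%, beside 32.4% and 21.3% of genes), and 15 passed the test in neither. Under quantile normalization 5 rose and 14 fell, and under median centring 4 rose and 12 fell. SLC25A5 stood at 377, 369 and 379.6 FPKM with si1-BCLIN25 and 368, 359 and 365 FPKM with si2-BCLIN25, against 389.99, 375 and 359 FPKM with si-NC. It passed the test in neither comparison, though under quantile normalization its log2 fold change in si1-BCLIN25 turned to -0.08 with an adjusted p of 0.0482, and si2-BCLIN25 passed at 0.0437. SLC25A3 averaged 147 ± 3.7 FPKM in si1-BCLIN25 and 141 ± 1.6 in si2-BCLIN25, against 149 ± 7.4 in si-NC, and passed it in neither, but in si2-BCLIN25 under median centring (adjusted p = 0.021). SLC25A6 had 149, 148 and 143 FPKM in si1-BCLIN25 and 133, 124 and 128 FPKM in si2-BCLIN25, against 135, 141 and 124 FPKM in si-NC, with a call in si1-BCLIN25 (0.14, adjusted p = 0.0239 in limma) that was lost under median centring (adjusted p = 0.128) and without si-NC replicate 3 (0.103), si1-BCLIN25 replicate 1 (0.069) or si1-BCLIN25 replicate 2 (0.0612). Without si-NC replicate 3 the comparison of si2-BCLIN25 passed (adjusted p = 0.0498). ADP/ATP carriers are close copies of each other with related pseudogenes, so their reads could be split between rows, and these values are uncertain.

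Larger changes were found in other members of the family. SLC25A24, the calcium-regulated carrier of ATP-magnesium and phosphate SCaMC-1, was at 64.99, 53.4 and 56.1 FPKM in the si1-BCLIN25 libraries and 63.1, 68.2 and 66.5 FPKM in the si2-BCLIN25 libraries, against 93.8, 101 and 108 FPKM in the si-NC libraries. On the log2 scale SLC25A24 changed by -0.78 and -0.60 (SE 0.068), with adjusted p = 7.14e-07 and 7.99e-06 in limma. SLC25A25, the related SCaMC-2, stood at 8.64, 9.98 and 10.4 FPKM with si1-BCLIN25 and 9.77, 9.35 and 9.76 FPKM with si2-BCLIN25, against 15.1, 14.3 and 14.5 FPKM with si-NC. Its log2 fold change was -0.56 with si1-BCLIN25 and -0.56 with si2-BCLIN25 (SE 0.059), at limma adjusted p = 4.57e-06 and 4.62e-06. Both were lower in every siRNA library than in any si-NC library, as was SLC25A37, the iron importer mitoferrin-1, which averaged 27.6 ± 0.23 FPKM in si1-BCLIN25 and 30.1 ± 1.3 in si2-BCLIN25, against 41.7 ± 0.85 in si-NC. SLC25A27, the uncoupling protein UCP4, had 3.43, 3.1 and 3.43 FPKM in si1-BCLIN25 and 4.22, 3.99 and 4.23 FPKM in si2-BCLIN25, against 1.46, 1.4 and 1.6 FPKM in si-NC. Set against si-NC, the log2 difference was 0.80 with si1-BCLIN25 and 1.05 with si2-BCLIN25 (SE 0.063), and limma gave adjusted p = 2.9e-07 and 2.38e-08. The si1-BCLIN25 and si2-BCLIN25 libraries of SLC25A27 did not overlap with each other either, and their difference was -0.25 on the log2 scale (adjusted p = 0.0855 in limma).

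Nucleoside and nucleotide sugar carriers rose and fell in like numbers. Of 28 members 7 rose in both groups and 5 fell (25% and 17.9%, beside 32.4% and 21.3% of genes), a balance that turned to 3 and 11 under quantile normalization and 5 and 8 under median centring. SLC35B1, which brings ATP into the endoplasmic reticulum and was the most abundant, averaged 55.8 ± 3.5 FPKM in si1-BCLIN25 and 52.2 ± 1.01 in si2-BCLIN25, against 52.7 ± 1.2 in si-NC, and passed the test in neither comparison. SLC29A3, the nucleoside transporter ENT3 of lysosomes, was at 5.52, 5.26 and 4.95 FPKM in the si1-BCLIN25 libraries and 4.56, 5.7 and 4.64 FPKM in the si2-BCLIN25 libraries, against 2.46, 2.53 and 2.28 FPKM in the si-NC libraries. SLC29A3 thus rose, the log2 fold changes being 0.87 and 0.80 with an SE of 0.076 and adjusted p of 7.64e-07 and 1.72e-06 in limma. SLC29A2, the nucleoside transporter ENT2, averaged 4.33 ± 0.28 FPKM in si1-BCLIN25 and 4.25 ± 0.27 in si2-BCLIN25, against 2.74 ± 0.26 in si-NC, and rose, while SLC29A1, the more abundant ENT1, averaged 9.9 ± 0.3 FPKM in si1-BCLIN25 and 9.97 ± 0.97 in si2-BCLIN25, against 11.4 ± 1.9 in si-NC, and passed the test in neither comparison.

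Falls in this class were in the SLC35 family. SLC35B4, a Golgi and endoplasmic reticulum carrier of UDP-xylose and UDP-N-acetylglucosamine, stood at 5.53, 5.87 and 5.79 FPKM with si1-BCLIN25 and 5.8, 5.99 and 5.88 FPKM with si2-BCLIN25, against 10.2, 9.65 and 11.02 FPKM with si-NC. In log2 terms SLC35B4 changed by -0.74 with si1-BCLIN25 and by -0.71 with si2-BCLIN25 (SE 0.054), and the adjusted p in limma was 1.39e-07 and 2.22e-07. SLC35F2, through which the survivin suppressant YM155 is known to enter cells, had 16.1, 15.5 and 16.5 FPKM in si1-BCLIN25 and 15.8, 15.6 and 15.5 FPKM in si2-BCLIN25, against 24.1, 26.04 and 24.8 FPKM in si-NC. On the log2 scale SLC35F2 changed by -0.61 and -0.64 (SE 0.042), with adjusted p = 8.94e-08 and 5.59e-08 in limma. Neither gene's siRNA libraries overlapped with si-NC. SLC35B2, the carrier of the sulfate donor PAPS, averaged 31.8 ± 1.8 FPKM in si1-BCLIN25 and 33.9 ± 1.9 in si2-BCLIN25, against 34.2 ± 2.5 in si-NC, and passed the test in neither comparison, but in si1-BCLIN25 without si-NC replicate 1 (adjusted p = 0.0254) and under median centring (0.038). SLC35D2 averaged 27.8 ± 1.3 FPKM in si1-BCLIN25 and 30.4 ± 1.3 in si2-BCLIN25, against 30.5 ± 1.7 in si-NC, and its call in si1-BCLIN25 (adjusted p = 0.0449 in limma) was lost without replicates 1 or 2 of si1-BCLIN25, replicate 2 of si2-BCLIN25, or replicates 1 or 3 of si-NC (adjusted p between 0.0501 and 0.171), and also under quantile normalization (0.0668), with no filter (0.0685), without the variance trend (0.0676) and with only the 2 groups fitted (0.0624).

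Vitamin, choline and acetyl-CoA carriers counted 13 members, of which 4 rose in both groups and 3 fell under each scaling tried (30.8% and 23.1%, beside 32.4% and 21.3% of genes unscaled). SLC52A2, the riboflavin importer RFVT2, was at 26.7, 26.4 and 27.4 FPKM in the si1-BCLIN25 libraries and 27.7, 28.2 and 27.3 FPKM in the si2-BCLIN25 libraries, against 39.4, 42.4 and 41.3 FPKM in the si-NC libraries. Its log2 fold change was -0.60 with si1-BCLIN25 and -0.55 with si2-BCLIN25 (SE 0.039), at limma adjusted p = 4.59e-08 and 1.02e-07. It lies on chromosome 8, where its 47 tested neighbours had medians of 0.01 and 0.01. SLC44A3, a choline transporter-like protein, stood at 3.99, 4.52 and 5.07 FPKM with si1-BCLIN25 and 5.48, 4.56 and 4.76 FPKM with si2-BCLIN25, against 2.35, 2.39 and 2.53 FPKM with si-NC. Set against si-NC, the log2 difference was 0.69 with si1-BCLIN25 and 0.79 with si2-BCLIN25 (SE 0.08), and limma gave adjusted p = 1.01e-05 and 2.97e-06. The most abundant carriers of its family, SLC44A1 and SLC44A2, passed the test in neither comparison, SLC44A1 averaging 44.5 ± 2.95 FPKM in si1-BCLIN25 and 46.4 ± 1.3 in si2-BCLIN25, against 47.9 ± 2.4 in si-NC. SLC44A1 was called lower in si1-BCLIN25 without si1-BCLIN25 replicate 1 (adjusted p = 0.0146) or si-NC replicate 2 (0.0481) and under median centring (0.0169). SLC44A2 averaged 37.1 ± 1.4 FPKM in si1-BCLIN25 and 36.6 ± 0.59 in si2-BCLIN25, against 35.4 ± 0.78 in si-NC. SLC46A3, a lysosomal carrier through which breakdown products of some antibody-drug conjugates leave, had 2.85, 3.27 and 2.84 FPKM in si1-BCLIN25 and 2.83, 2.89 and 2.58 FPKM in si2-BCLIN25, against 1.17, 1.87 and 1.55 FPKM in si-NC. SLC46A3 thus rose, the log2 fold changes being 0.66 and 0.58 with an SE of 0.095 and adjusted p of 5.92e-05 and 0.000177 in limma. SLC19A1, the reduced folate carrier, which also takes up methotrexate, averaged 17.8 ± 0.76 FPKM in si1-BCLIN25 and 18.2 ± 0.97 in si2-BCLIN25, against 18.9 ± 1.9 in si-NC, and passed the test in neither comparison. SLC46A1, the proton-coupled folate transporter, averaged 12.05 ± 0.26 FPKM in si1-BCLIN25 and 12.1 ± 0.405 in si2-BCLIN25, against 12.4 ± 0.85 in si-NC, and did not pass it either, while SLC25A32, the mitochondrial folate carrier, averaged 17.9 ± 0.44 FPKM in si1-BCLIN25 and 18.2 ± 0.605 in si2-BCLIN25, against 24.9 ± 0.46 in si-NC, and fell.

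Organic ion, bile acid and drug carriers summed to 100.5 ± 2.81 FPKM in si1-BCLIN25 and 102 ± 1 in si2-BCLIN25, against 149 ± 8.03 in si-NC (SD, n = 3 each). Of 13 members 5 rose in both groups and 4 fell (38.5% and 30.8%, beside 32.4% and 21.3% of genes), against 4 and 5 under quantile normalization and 4 and 4 under median centring. The lower sum was that of SLCO4A1: without it the class summed to 91.1 ± 2.7 FPKM in si1-BCLIN25 and 92.4 ± 0.69 in si2-BCLIN25, against 81.4 ± 2.4 in si-NC, with the siRNA groups higher. SLCO4A1, the organic anion transporter OATP4A1, known to take up thyroid hormones, was at 9.15, 10.1 and 8.85 FPKM in the si1-BCLIN25 libraries and 9.73, 9.96 and 9.28 FPKM in the si2-BCLIN25 libraries, against 62.8, 74.2 and 66.4 FPKM in the si-NC libraries. In log2 terms SLCO4A1 changed by -2.73 with si1-BCLIN25 and by -2.69 with si2-BCLIN25 (SE 0.064), and the adjusted p in limma was 2.94e-12 and 3.68e-12. It was the largest fall among the members above the filter throughout, with the 6 siRNA libraries close together and the 3 si-NC libraries far above them. Its 50 neighbours on chromosome 20 had medians of -0.29 and -0.31. SLCO1B3, known in liver for the uptake of paclitaxel, averaged 6.85 ± 0.16 FPKM in si1-BCLIN25 and 7.59 ± 0.24 in si2-BCLIN25, against 7.91 ± 0.34 in si-NC, with a call in si1-BCLIN25 (-0.18, adjusted p = 0.00628 in limma) and none in si2-BCLIN25 (-0.05, adjusted p = 0.373).

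The SLC22 family of organic cation and zwitterion carriers held 5 of these members. In both groups 3 of the 5 rose and 1 fell (60% and 20%, beside 32.4% and 21.3% of genes). Under either other scaling 2 rose. These counts are small and were not tested. SLC22A4, the ergothioneine transporter OCTN1, stood at 1.31, 1.51 and 1.45 FPKM with si1-BCLIN25 and 1.9, 1.62 and 1.36 FPKM with si2-BCLIN25, against 2.93, 3.43 and 3.84 FPKM with si-NC. On the log2 scale SLC22A4 changed by -0.86 and -0.74 (SE 0.094), with adjusted p = 5.88e-06 and 2.05e-05 in limma. SLC22A5, the carnitine importer OCTN2 and neighbour of SLC22A4 on chromosome 5, averaged 8.19 ± 0.11 FPKM in si1-BCLIN25 and 8.36 ± 0.47 in si2-BCLIN25, against 7.17 ± 0.67 in si-NC, and rose. SLC22A23, an orphan transporter, had 5.95, 6.36 and 5.99 FPKM in si1-BCLIN25 and 6.07, 5.92 and 5.65 FPKM in si2-BCLIN25, against 2.67, 2.78 and 3.14 FPKM in si-NC. Its log2 fold change was 0.88 with si1-BCLIN25 and 0.83 with si2-BCLIN25 (SE 0.0603), at limma adjusted p = 7.85e-08 and 1.34e-07. SLC18B1, a vesicular polyamine transporter, was at 22.05, 21.5 and 21.3 FPKM in the si1-BCLIN25 libraries and 20.5, 20.5 and 21.7 FPKM in the si2-BCLIN25 libraries, against 14.3, 13.9 and 14.5 FPKM in the si-NC libraries. Set against si-NC, the log2 difference was 0.57 with si1-BCLIN25 and 0.52 with si2-BCLIN25 (SE 0.0399), and limma gave adjusted p = 9.28e-08 and 2.18e-07. For both genes the si-NC libraries stood below every siRNA library. SLC10A3 averaged 11.2 ± 0.94 FPKM in si1-BCLIN25 and 12.2 ± 1.02 in si2-BCLIN25, against 15.02 ± 1.8 in si-NC, and fell, the call in si2-BCLIN25 being lost without si-NC replicate 2 (adjusted p = 0.055) or si2-BCLIN25 replicate 3 (0.0562). SLC17A5, which exports sialic acid from lysosomes, averaged 7.19 ± 0.36 FPKM in si1-BCLIN25 and 7.43 ± 0.13 in si2-BCLIN25, against 4.73 ± 0.25 in si-NC, and rose.

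In the other families 3 of 8 members rose in both groups and 2 fell (37.5% and 25%, beside 32.4% and 21.3% of genes), against 2 and 3 under quantile normalization and 2 and 4 under median centring. SLC71A2 (MFSD14B) averaged 53.2 ± 0.31 FPKM in si1-BCLIN25 and 53.5 ± 0.83 in si2-BCLIN25, against 57.5 ± 1.6 in si-NC. It fell in both groups, with log2 fold changes of -0.11 and -0.10, the second call being lost without si-NC replicate 3 (adjusted p = 0.0657), si2-BCLIN25 replicate 1 (0.052) or si2-BCLIN25 replicate 3 (0.0707). SLC71A1 (MFSD14A), its close relative, averaged 31.8 ± 0.24 FPKM in si1-BCLIN25 and 31.9 ± 0.705 in si2-BCLIN25, against 33.4 ± 0.86 in si-NC, and passed the test in neither comparison, but in both under median centring (adjusted p = 0.0155 and 0.0141). SLC75A1 (MFSD10) averaged 22.4 ± 1.1 FPKM in si1-BCLIN25 and 22.96 ± 0.92 in si2-BCLIN25, against 19.01 ± 1.9 in si-NC, and rose. Of the symbols that name no transporter, SLC4A1AP, the kanadaptin gene on chromosome 2, averaged 13.3 ± 0.99 FPKM in si1-BCLIN25 and 13.2 ± 1.1 in si2-BCLIN25, against 17.7 ± 0.69 in si-NC, and fell. SLC2A4RG, a regulator of the SLC2A4 gene, averaged 15.9 ± 0.36 FPKM in si1-BCLIN25 and 16.8 ± 0.73 in si2-BCLIN25, against 18.4 ± 1.5 in si-NC, with a call in si1-BCLIN25 (adjusted p = 0.00843 in limma) and none in si2-BCLIN25 (adjusted p = 0.0834), where it passed without si-NC replicate 1 (0.0114) and under both other scalings. SLC35E2A, a partial copy of SLC35E2B, averaged 5.43 ± 0.44 FPKM in si1-BCLIN25 and 5.48 ± 0.63 in si2-BCLIN25, against 3.73 ± 0.41 in si-NC, and was called higher, and since reads could be split between the copies this value is uncertain.

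Between si1-BCLIN25 and si2-BCLIN25 0 of the 210 were called by limma, beside 0.596% of genes at 1 FPKM in every library. The members called with a single siRNA are therefore not shown to differ between the siRNAs. In limma at an unadjusted p below 0.05 stood 31 of the 210 (14.8%), against 18.4% of those genes. SLC9D1 had the smallest adjusted p among the members, 0.0737, with 44.3, 43.9 and 42.2 FPKM in si1-BCLIN25 and 49.8, 47.1 and 48.9 FPKM in si2-BCLIN25, all 3 lower with si1-BCLIN25. Among the 210, differences between si1-BCLIN25 and si2-BCLIN25 ran from -0.26 on the log2 scale for the thiamine importer SLC19A2 (adjusted p = 0.0929) to 0.25 for SLC16A13 (adjusted p = 0.178), and their median size was 0.05. The median size of the differences from si-NC was 0.18 in si1-BCLIN25 and 0.19 in si2-BCLIN25.

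**Figure D4:**
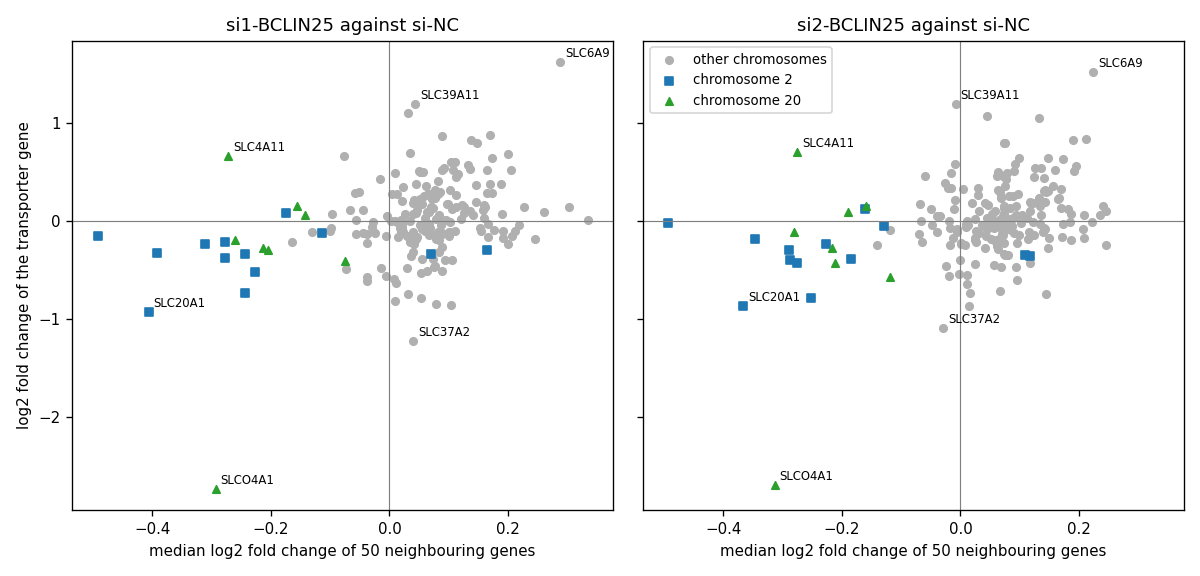
Log2 fold change of each transporter gene above 1 FPKM in all libraries (vertical) by the median of its 50 neighbouring tested genes (horizontal), for si1-BCLIN25 (left) and si2-BCLIN25 (right) against si-NC. Genes of chromosomes 2 (squares) and 20 (triangles) lie mostly left of 0, and SLC4A11 is the gene of chromosome 20 that lies above 0.5 among neighbours with medians of -0.27 and -0.28.

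Position on the genome moved with the falls, counting only members and genes at 1 FPKM in every library. Of 13 such members on chromosome 2, none rose in both groups and 9 fell, where 48.4% of the 766 such genes of that chromosome fell and 18.8% rose. Of 8 members on chromosome 20, 4 fell and 1, SLC4A11, rose, where 53.5% of 299 genes fell and 13.4% rose. On the other chromosomes 41 of 189 members fell (21.7%) and 60 rose (31.7%), against 18.4% and 34% of 10346 genes. SLC20A1, SLC5A6, SLC4A1AP and SLC30A6 on chromosome 2 and SLCO4A1 and SLC23A2 on chromosome 20 thus fell among neighbours that were lower too. SLC39A10 and SLC4A3 on chromosome 2 fell among neighbours whose medians lay above 0, at 0.07 and 0.11 for SLC39A10 and 0.16 and 0.12 for SLC4A3. The part of position in the single falls was not tested, and the medians over the 189 members on other chromosomes were 0.01 and 0.01.

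The 20 members that fell short of 1 FPKM in some library owed their place to the libraries where they were higher, so their differences are given with no test. In 7 of them every si-NC library lay below 1 FPKM and every siRNA library at or above it, in 1 the reverse held, and 12 were of neither kind. The filter itself leans toward genes higher with siRNA, since any 3 siRNA libraries meet it, while from si-NC alone all 3 are needed. The same split over other genes below 1 FPKM in some library was not counted. SLC16A9, a monocarboxylate carrier family member, stood at 3.59, 3.17 and 3.48 FPKM with si1-BCLIN25 and 3.47, 3.17 and 2.93 FPKM with si2-BCLIN25, against 0.82, 0.71 and 0.98 FPKM with si-NC. SLC16A14, an orphan of the same family, had 3.06, 2.79 and 3.01 FPKM in si1-BCLIN25 and 3.19, 3.09 and 3.11 FPKM in si2-BCLIN25, against 0.91, 0.66 and 0.93 FPKM in si-NC. SLC44A4, known in colon as a carrier of thiamine pyrophosphate, was at 2.11, 2.26 and 1.89 FPKM in the si1-BCLIN25 libraries and 2, 1.97 and 1.64 FPKM in the si2-BCLIN25 libraries, against 0.31, 0.34 and 0.27 FPKM in the si-NC libraries. In all 3 the siRNA libraries lay above the si-NC libraries with a wide gap. SLC38A4, a relative of SLC38A2, stood at 2.78, 2.85 and 2.86 FPKM with si1-BCLIN25 and 2.79, 3.27 and 2.78 FPKM with si2-BCLIN25, against 0.94, 0.99 and 1 FPKM with si-NC. SLC15A2, the peptide importer PEPT2, had 1.79, 2.01 and 1.78 FPKM in si1-BCLIN25 and 1.86, 2.23 and 2.37 FPKM in si2-BCLIN25, against 0.72, 0.61 and 0.69 FPKM in si-NC. Both stood higher with siRNA, as did most of the 20.

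Genes that stood lower with siRNA were fewer among these 20, a split that the filter favours and that is not read as a result about them. SLC22A3, the organic cation transporter OCT3, was at 0.94, 0.94 and 1.21 FPKM in the si1-BCLIN25 libraries and 1.27, 1.51 and 1.22 FPKM in the si2-BCLIN25 libraries, against 4.22, 4.18 and 4.05 FPKM in the si-NC libraries. SLC8A1, the sodium/calcium exchanger NCX1, stood at 0.65, 0.59 and 0.65 FPKM with si1-BCLIN25 and 1.05, 0.73 and 1.02 FPKM with si2-BCLIN25, against 3.2, 2.89 and 2.94 FPKM with si-NC. SLC9A2, the sodium/proton exchanger NHE2, had 0.89, 0.67 and 0.75 FPKM in si1-BCLIN25 and 0.83, 0.98 and 1.09 FPKM in si2-BCLIN25, against 2.73, 2.46 and 2.71 FPKM in si-NC. In each of the 3 genes all si-NC libraries lay above 2 FPKM and all siRNA libraries below it. Just inside the filter by the third highest library stood SLCO5A1 (1.05 FPKM), SLC60A1 (1.06) and SLC27A5 (1.08), and just outside it SLC26A7 (0.99), SLC30A4-AS1 (0.96) and SLC4A4 (0.93).

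**Figure D5:**
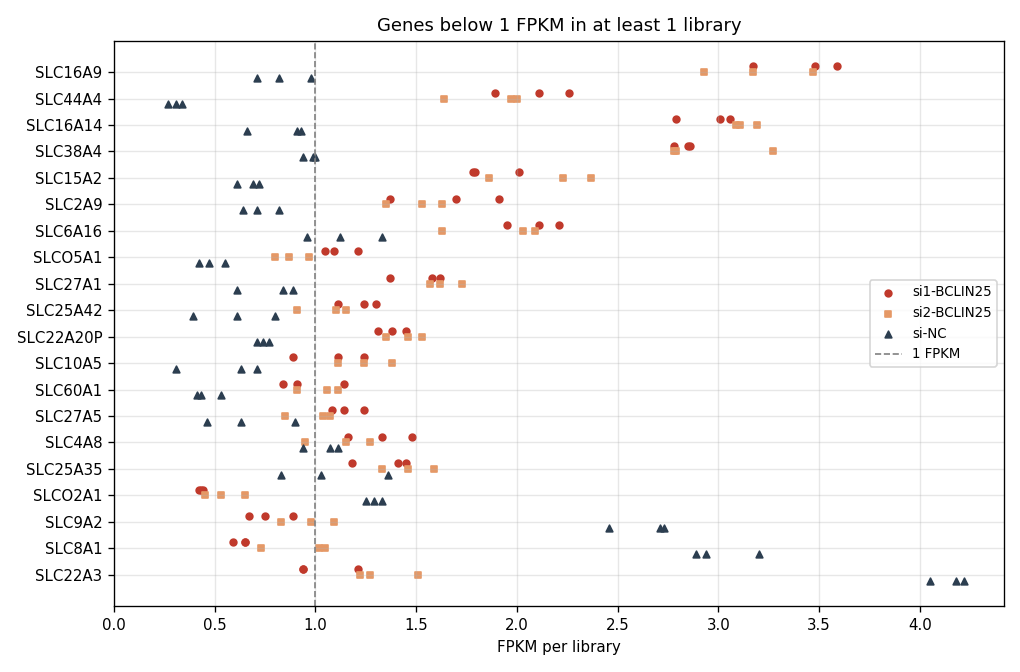
FPKM per library of the 20 members that lay below 1 FPKM (dashed line) in at least 1 library, with 3 libraries per group. SLC22A3, SLC8A1, SLC9A2 and SLCO2A1 lie to the right in si-NC, and SLC16A9 and SLC16A14 lie to the right in both siRNA groups.

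Of 35 genes listed as partners of these carriers, 31 were tested. With si1-BCLIN25 14 of them rose and 10 fell, beside 38.4% and 24.6% of all genes tested, and with si2-BCLIN25 17 rose and 11 fell, beside 38.6% and 24.4%. ATP1B1, a beta subunit of the sodium pump, whose gradient drives many of the amino acid and phosphate carriers, averaged 185 ± 8.5 FPKM in si1-BCLIN25 and 172 ± 0.81 in si2-BCLIN25, against 91.4 ± 1.9 in si-NC, and rose, with log2 fold changes of 1.01 and 0.90. BSG (basigin), the chaperone that brings SLC16A1 and SLC16A3 to the surface, averaged 380.02 ± 13 FPKM in si1-BCLIN25 and 359 ± 5.4 in si2-BCLIN25, against 235 ± 11 in si-NC, and rose, by 0.69 and 0.61. Both partner genes rose with either siRNA, while SLC16A3 itself fell.

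Regulators of carriers moved in both directions. NEDD4L, a ubiquitin ligase that removes several carriers from the membrane, averaged 11.7 ± 0.58 FPKM in si1-BCLIN25 and 12.4 ± 0.34 in si2-BCLIN25, against 30.6 ± 0.27 in si-NC, and fell. STK39, a kinase that regulates chloride cotransporters of the SLC12 family, averaged 15.99 ± 0.22 FPKM in si1-BCLIN25 and 16.8 ± 0.97 in si2-BCLIN25, against 28.5 ± 1.6 in si-NC, and fell, on chromosome 2. TXNIP, which limits glucose uptake through SLC2A1, averaged 92.5 ± 3.1 FPKM in si1-BCLIN25 and 104 ± 2.5 in si2-BCLIN25, against 58.1 ± 1.8 in si-NC, and rose. HK2, the hexokinase that traps imported glucose, averaged 10.2 ± 0.35 FPKM in si1-BCLIN25 and 9.92 ± 0.18 in si2-BCLIN25, against 16.03 ± 0.87 in si-NC, and fell, also on chromosome 2. The carbonic anhydrase CA2, a bicarbonate-producing partner of SLC4 exchangers, averaged 55.8 ± 2.2 FPKM in si1-BCLIN25 and 50.8 ± 1.4 in si2-BCLIN25, against 10.99 ± 0.18 in si-NC, and rose, by 2.24 and 2.11. The metallothionein MT2A, which binds zinc and copper, averaged 800.1 ± 8.3 FPKM in si1-BCLIN25 and 852 ± 41 in si2-BCLIN25, against 1529 ± 61 in si-NC, and was called lower, but metallothionein genes share reads and the value is uncertain. With the same uncertainty, MT1F and MT1X were called lower in both groups. MT1E, below 1 FPKM in si-NC, stood higher, at 1.91 and 3.11 against 0.697 FPKM. FTH1, the heavy chain of the iron store ferritin, averaged 3661 ± 88 FPKM in si1-BCLIN25 and 3752 ± 53 in si2-BCLIN25, against 2256 ± 29.7 in si-NC, and rose beside SLC11A2. ARRDC4, an arrestin-related regulator of glucose uptake, was the partner called between the siRNA groups, where 0.585% of all genes tested were called, at 6.02 ± 0.15 FPKM in si1-BCLIN25, 8.29 ± 0.34 in si2-BCLIN25 and 6.59 ± 0.499 in si-NC (si1-BCLIN25 against si2-BCLIN25 -0.40 on the log2 scale, limma adjusted p = 0.0181).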

How the data were processed

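Total RNA was extracted with Trizol and sequenced on a BGI500 instrument, per the labels' protocols. The authors deposited FPKM values for 9 libraries in a single table. The submitters' processing notes list RSEM 1.2.12, DESeq2 1.4.5, HISAT2 2.0.4 and Bowtie2 2.2.5 with no role, and the build is not given in the sources used here. Sequencing depth is unknown: within a tolerance of 0.1, 20.1% of 9656 low values were whole multiples of the smallest value of their gene, so reads were not recovered and no counting interval is given. Symbols came from RefSeq (GRCh38.p14) for 17748 rows.

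Genes with 1 FPKM or more in at least 3 libraries (12317) were fitted as log2(FPKM + 1) with limma 3.58.1 in R 4.3.3 (group means over all 9 libraries, eBayes with trend), with Benjamini-Hochberg adjustment over all of them and a threshold of 0.05. The fit was also run on simulated data in which few genes changed, in si1-BCLIN25 only, and no library was shifted. That setting differs from these data, so the run does not speak to the number of calls here. Standard deviations and n refer to the 3 libraries of a group. Members and lists were chosen with earlier results of these data known. Named by rule were the 14 largest rises and falls shared by both groups without overlap, the 3 most abundant members per class and 8 members below 1 FPKM in some library; SLC38A5, SLC7A1, SLC43A1, SLC37A1, SLC12A2, SLC4A7, SLC48A1, SLC39A4, SLC31A1, SLC25A37, SLC25A32, SLC29A1, SLC29A2, SLC19A1, SLC46A1, SLCO1B3, SLC22A5, SLC17A5 and the named partner genes were named after their values were seen, as were SLC23A2, SLC30A6, SLC39A10 and SLC4A3. Promoters of genes on chromosome 8 are not shown, and some genes the rule named are not reported here. Substrate classes follow family numbers, and protein identities were not analysed here. Reads from overlapping genes on opposite strands cannot be told apart, since strandedness is not stated. Alternatives were other scalings, filters, pseudocounts and designs, and leaving out each library.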

Additional observations from a re-analysis of the deposited data

How the results depend on the processing

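Over the members with 1 FPKM in every library, 210 of them under most settings, 189 without chromosomes 2 and 20 and 167 with a minimum of 5 FPKM in 3 libraries, the numbers called higher and lower against si-NC stayed within 1.5 times their values. With each library left out in turn, si1-BCLIN25 had 58 to 67 higher and 54 to 65 lower, and si2-BCLIN25 had 61 to 67 higher and 53 to 64 lower. Between the siRNA groups 0 members were called higher and 0 to 1 lower, the 1 appearing without si-NC replicate 2, and with only the 2 groups compared in the fit 2 were called higher and 1 lower. The median log2 fold change, -0.012 in si1-BCLIN25 and -0.014 in si2-BCLIN25, lay near 0 and moved with the scaling: in si1-BCLIN25 it was -0.06 after median centring, -0.08 after quantile normalization and 0.009 without chromosomes 2 and 20, and in si2-BCLIN25 it was -0.065, -0.07 and 0.011 under the same settings; the cause was not tested. With libraries left out the medians ran from -0.03 to 0 in si1-BCLIN25 and from -0.028 to -0.003 in si2-BCLIN25. Libraries with the same replicate number did not deviate together (correlations from -0.164 to 0.139, against -0.193 to 0.218 for different numbers). Deviations from means of 3 libraries hold little information, so this cannot show whether the numbers pair the samples. A replicate block gave 66 higher and 62 lower in si1-BCLIN25, 65 higher and 62 lower in si2-BCLIN25, 0 between the siRNA groups, and medians of -0.012 and -0.014. Of 118 results for the 59 members named by the rule and above the filter throughout, each run under 17 to 19 of the 19 alternatives, 25 changed side of the threshold under some alternative, and SLC25A5 in si1-BCLIN25 turned to -0.08 under quantile normalization. None of the 28 largest rises and falls changed side, but they were chosen from these same data as the largest changes, so this was nearly set by the choice.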
